A study of Mus musculus with 12 samples.

Results

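The regions described here are sites at which USF2 was called in mouse embryonic fibroblasts (MEFs) under normal culture but not after glucose starvation, and which lie close to an end of a gene. They were chosen by their calls: overlapping peaks of the 4 USF2 lists, sharing 1 bp or more, were joined into regions, and those in which both normal lists and neither starved list had a peak were kept. The summit of a region, the position of highest signal in its best peak, also had to lie no more than 5000 bp from the start or far end of a protein-coding gene of GRCm38. Of 3804 merged regions, 760 were called in both normal lists only, and 257 of these lay near a gene end. They made up 48.8% of the 527 regions near gene ends that both normal lists called. Because the calls chose the regions, their presence in normal culture, their absence from the starved lists and their fold enrichments are given as a description and without a test. A missing call means that no peak passed the threshold of the peak caller, not that USF2 was absent.

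The libraries came from chromatin immunoprecipitation followed by sequencing (ChIP-seq), which pulls down the DNA bound by a protein with an antibody and sequences it. All 4 USF2 libraries were from wild-type MEFs, with 2 libraries per condition, and the labels state neither the duration nor the medium of the starvation. Separate cultures are not stated for the 2 libraries of a condition, whose differences may therefore be technical only. Inputs and H3K27ac libraries of Usf2 wild-type and knockout MEFs, the other samples of the series, were not analysed here.

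USF2 is a basic helix-loop-helix leucine zipper protein that binds DNA as a dimer with itself or with its close relative USF1. It recognises the palindromic E-box CACGTG, usually in the promoter just before the start of a gene, and it is known as a regulator of genes of metabolism and cell growth. Other leucine zipper factors of the same class, such as MAX, MITF and TFEB, read the same letters, and MITF and TFEB are known for controlling genes of the lysosome. The ETS family is unrelated to USF2 and binds promoters of many housekeeping genes through a core with the letters CCGGAA.

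Sequence around the summit was available where the summit fell into a RefSeq promoter window of GRCm38.p6, which runs from 250 bases before a gene's start to 50 bases after it. This held for 100 of the 257 regions. The stretches below are those with an E-box in the strongest regions, those with the E-box nearest to the summit, and 1 from an endosomal gene. Each runs 5′ to 3′ on the strand of its gene, over at most 75 bases either side of the summit and at most 30 bases past the start, with the summit at base 76. Capitals mark CACGTG and CCGGAA, the latter also as its reverse complement TTCCGG.
Rab21 (chr10:115315562-115315689, minus strand): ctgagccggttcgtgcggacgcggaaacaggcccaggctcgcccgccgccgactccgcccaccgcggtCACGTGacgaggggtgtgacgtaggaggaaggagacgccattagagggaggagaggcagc
Ten1 (chr11:116198800-116198884, plus strand): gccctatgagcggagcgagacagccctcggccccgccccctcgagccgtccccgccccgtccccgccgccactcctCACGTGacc
Mafg (chr11:120633518-120633661, minus strand): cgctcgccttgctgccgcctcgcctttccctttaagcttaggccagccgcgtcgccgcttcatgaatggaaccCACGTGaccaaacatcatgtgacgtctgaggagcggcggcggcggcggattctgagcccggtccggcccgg
Metap1d (chr2:71453270-71453367, plus strand): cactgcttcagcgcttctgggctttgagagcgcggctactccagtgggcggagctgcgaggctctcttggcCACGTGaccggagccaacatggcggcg
Klhl22 (chr16:17759539-17759650, plus strand): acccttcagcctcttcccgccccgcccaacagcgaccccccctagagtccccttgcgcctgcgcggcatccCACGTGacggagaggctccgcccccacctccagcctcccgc
Stk4 (chr2:164074009-164074159, plus strand): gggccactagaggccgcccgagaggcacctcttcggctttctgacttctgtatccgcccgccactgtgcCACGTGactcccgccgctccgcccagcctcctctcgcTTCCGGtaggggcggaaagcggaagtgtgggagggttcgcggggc
Klhl28 (chr12:64965663-64965771, plus strand): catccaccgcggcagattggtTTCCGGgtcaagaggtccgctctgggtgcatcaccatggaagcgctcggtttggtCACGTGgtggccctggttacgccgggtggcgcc
Gga2 (chr7:122021169-122021250, minus strand): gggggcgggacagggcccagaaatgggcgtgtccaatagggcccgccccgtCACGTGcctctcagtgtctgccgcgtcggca

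In 7 of these 8 stretches the E-box lay within 5 bp of the summit, which was the reason to show most of them. Its centre was 4.5 bp from the summit at Rab21, a small GTPase of early endosomes, and 3.5 bp at Ten1, a subunit of a complex that protects chromosome ends. At Mafg, a small Maf transcription factor, the distance was 0.5 bp. It was 1.5 bp at Metap1d, a mitochondrial aminopeptidase, and also at Klhl22, an adaptor of a ubiquitin ligase. Stk4, a kinase of the Hippo pathway, and Klhl28 followed at 3.5 bp, a distance shared by Tef, whose stretch is not shown. The stretch at Klhl28 is on the strand of its neighbour Togaram1, whose window holds the summit. At Gga2, a clathrin adaptor of the trans-Golgi network, the E-box lay 21.5 bp away.

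Most of the searched windows had no E-box, a word used here for CACGTG unless another form is named. CACGTG was present in 39 of the 100 windows (39.0%, 95% exact interval 29.4 to 49.3), against 7.84% of the 21263 promoter windows of all protein-coding genes. Regions called in all 4 lists had it far more often, in 135 of 147 windows (91.8%, interval 86.2 to 95.7). Regions of both starved lists alone had it in 59 of 70 (84.3%, 73.6 to 91.9), those of both normal lists and 1 starved list in 18 of 25 (72.0%, 50.6 to 87.9), and those of a single list in 39 of 71 (54.9%, 42.7 to 66.8). The interval of the normal-only regions did not overlap that of the regions called in all 4 lists, of both starved lists alone or of both normal and 1 starved list, while it did overlap that of single-list regions. These intervals cover counting error only, and no test was made between the groups of regions.

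The ETS core had the opposite order. CCGGAA on either strand was present in 56 of the 100 windows of normal-only regions (56.0%, 95% exact interval 45.7 to 65.9). It was present in 35.4% of windows of regions called in all 4 lists (27.7 to 43.7), in 37.1% of starved-only windows (25.9 to 49.5) and in 18.7% of all promoter windows. Regions of both normal lists and 1 starved list had CCGGAA in 40.0% of windows (21.1 to 61.3). For single-list regions the share was 45.1% (33.2 to 57.3). The interval of the normal-only regions did not overlap that of the regions called in all 4 lists. It overlapped those of the starved-only regions, of both normal and 1 starved list, and of single-list regions. Within the normal-only regions the ETS core and the E-box tended to lie in different windows: CCGGAA was in 42 of the 61 windows without CACGTG (68.9%, 55.7 to 80.1) and in 14 of the 39 with it (35.9%, 21.2 to 52.8). Regions called in all 4 lists had nearly the same 2 shares, 8 of 12 windows without CACGTG (66.7%, 34.9 to 90.1) and 44 of 135 with it (32.6%, 24.8 to 41.2). Starved-only regions did not show this difference, with CCGGAA in 4 of 11 windows without CACGTG (36.4%, 10.9 to 69.2) and in 22 of 59 with it (37.3%, 25 to 50.9). In 19 normal-only windows neither motif was present.

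**Figure D1:**
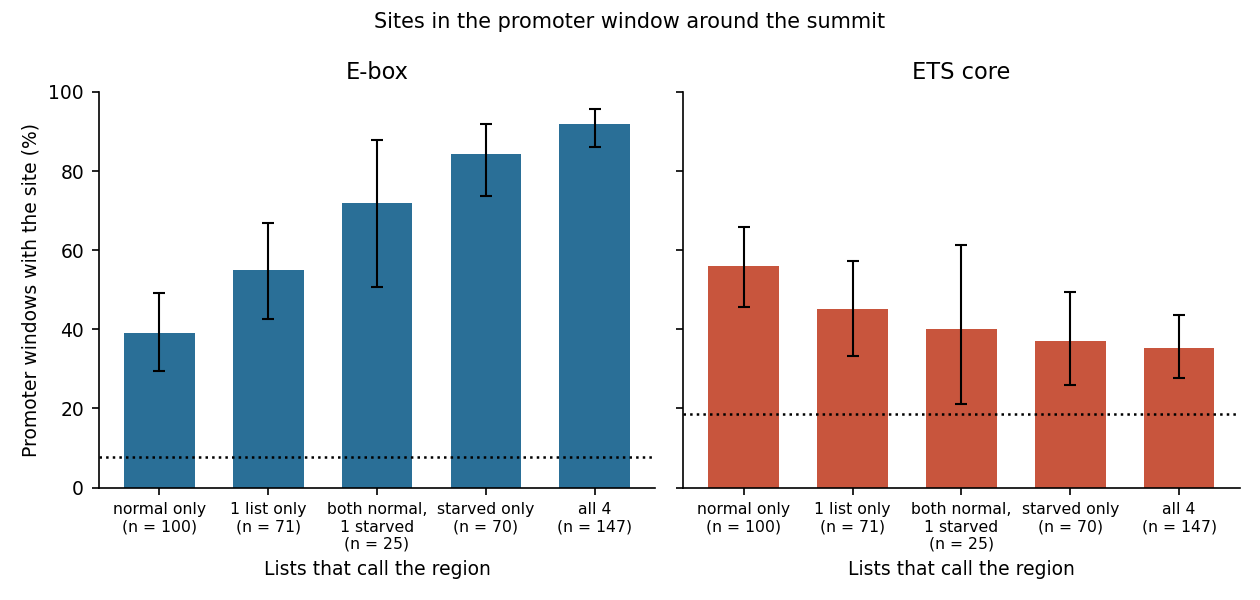
Percentage of promoter windows around the summit that hold the E-box (left) or the ETS core (right), by the lists that called the region. Bars carry 95% exact intervals, n is the number of windows, and the dotted line is the share in all promoter windows of protein-coding genes; the normal-only regions have the lowest bar for the E-box (39.0%) and the highest for the ETS core (56.0%).

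The next stretches were chosen after their values were seen. They show the 3 strongest normal-only regions with an ETS core within 50 bp of the summit and no CACGTG in the window. The stretch at Commd4 does hold the other E-box forms CATGTG and CAGCTG, in small letters. Strand, summit and capitals are as above.
Commd4 (chr9:57158270-57158381, minus strand): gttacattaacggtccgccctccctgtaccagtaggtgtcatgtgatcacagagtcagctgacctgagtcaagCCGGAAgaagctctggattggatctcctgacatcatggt
Fra10ac1 (chr19:38224129-38224279, minus strand): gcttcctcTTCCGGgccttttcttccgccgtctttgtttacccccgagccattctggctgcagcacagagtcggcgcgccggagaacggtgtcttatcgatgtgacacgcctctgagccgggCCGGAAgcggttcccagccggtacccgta
Usp30 (chr5:114100186-114100336, plus strand): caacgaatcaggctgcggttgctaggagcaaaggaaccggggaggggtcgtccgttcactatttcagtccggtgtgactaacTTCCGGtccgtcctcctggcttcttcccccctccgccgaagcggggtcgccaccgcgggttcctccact

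Commd4 encodes a subunit of the Commander complex, which recycles proteins from endosomes, and its ETS core was centred 0.5 bp from the summit. Usp30, a deubiquitinase of the outer mitochondrial membrane, had it 9.5 bp away. At Fra10ac1, whose product associates with the spliceosome, the nearer of the 2 copies shown was centred 49.5 bp from the summit. Within 50 bp of the summit, CACGTG was present in 33 of the 100 normal-only windows (33.0%, 23.9 to 43.1) and CCGGAA in 36 (36.0%, 26.6 to 46.2). In regions called in all 4 lists the same distance held CACGTG in 84.4% of windows (77.5 to 89.8) and CCGGAA in 15.6% (10.2 to 22.5). Where an E-box was present, its median distance from the summit was 21.5 bp in normal-only regions (quartiles 5 and 40.0) and 12.5 bp in regions called in all 4 lists (5.5 and 24.0). The median was 20.5 bp in regions of both normal and 1 starved list, 23.5 bp in single-list regions and 26.5 bp in starved-only regions. The distance in normal-only regions was thus like that in these 3 groups.

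The low E-box share was not limited to weak regions. Fold enrichment is the height of the read pileup at the summit relative to the local background, and the smaller of the 2 normal values was used to order regions. Where it was at most 8, CACGTG was in 30 of 75 normal-only windows (40.0%, 28.9 to 52.0) and in 41 of 47 windows of regions called in all 4 lists (87.2%, 74.3 to 95.2). Above 8 it was in 9 of 25 normal-only windows (36.0%, 18 to 57.5) and in 94 of 100 others (94.0%, 87.4 to 97.8). Of the 12 normal-only windows with a smaller fold enrichment above 10, those at Rab21 and Ten1 had the motif. The share was also alike in normal-only regions whose 2 peaks had an edge at the same base (10 of 27, 37.0%, 19.4 to 57.6) and in those whose peaks did not (29 of 73, 39.7%, 28.5 to 51.9).

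**Figure D2:**
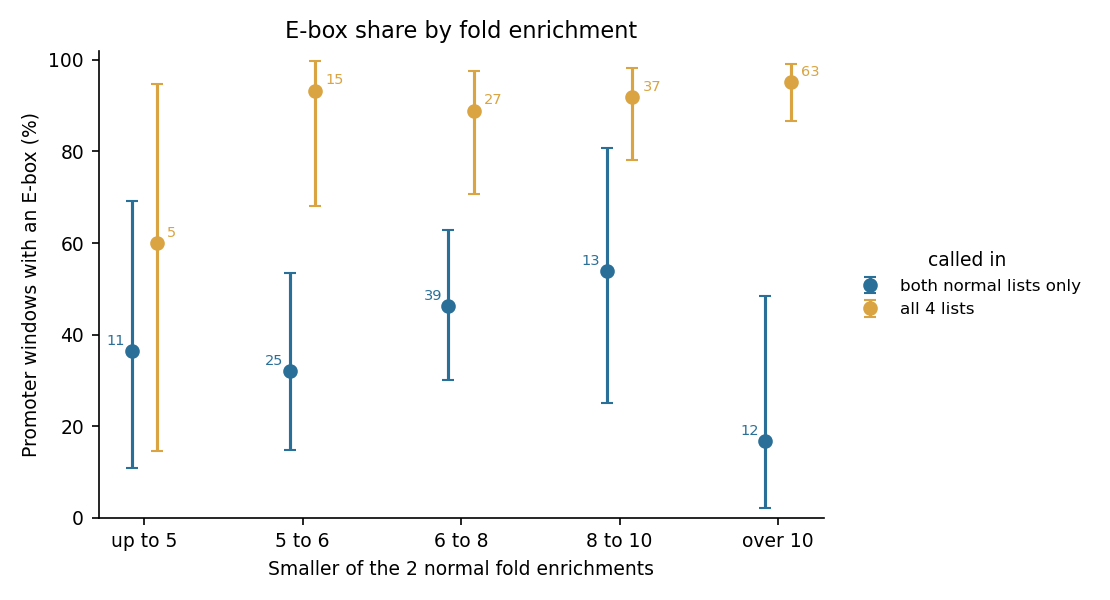
Percentage of promoter windows with an E-box, by the smaller fold enrichment of the 2 normal libraries, for normal-only regions (blue) and regions called in all 4 lists (yellow). Points carry 95% exact intervals and the number of windows; from a fold enrichment of 5 upwards the share in normal-only regions lies between 16.7% and 53.8% and that in the regions of all 4 lists between 88.9% and 95.2%.

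Of the other motifs searched on both strands, most were about as frequent in normal-only windows as in all promoters. The E-box variant CATGTG was in 16.0% of the normal-only windows and in 11.5% of all promoters, and the E-box of other factors, CAGCTG, in 15% and 15.6%. The GC box GGGCGG, bound by Sp1, was in 56.0% and 46.2%, against 68.7% of windows of regions called in all 4 lists and 82.9% of starved-only windows. The CCAAT box was in 37.0% and 38.2%, the CRE core TGACGT in 11.0% and 8.49%, the AP-1 site TGAGTCA in 3% and 4.66%, and the NRF1 site GCGCATGC in 4% and 3.52%. TGACGT can share its first letters with the end of CACGTG. The longer forms CACGTGAC and ACTTCCGG, which contain the E-box and the reverse complement of the ETS core, were added after the stretches were seen. CACGTGAC was in 28.0% of normal-only windows, 78.2% of windows of regions called in all 4 lists and 2.84% of all promoters, and ACTTCCGG in 25%, 9.52% and 5.15%. The median GC content was 60% in normal-only windows, 63.0% in those of regions called in all 4 lists and 56.3% in all promoters. A match says only that the letters are there, not that a protein bound them.

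The normal lists held 1645 and 2124 peaks and the starved lists 825 and 1178. Lists of the 2 conditions differed in width: the narrowest peak was 152 bp wide in normal culture against 306 bp in starvation. The lowest local background, recovered from fold enrichment and p-value, was divided by that width. In reads per Mb this gave 644.0 and 644.1 for normal culture against 428.4 and 434.1 for starvation. These values compare depth only if the narrowest width is the length to which reads were extended, which was not tested. Genes of fibroblasts (24 markers) and of other cell types (26 markers) had no normal-only region within 5000 bp, which for binding data says nothing of the identity of the cells.

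In the 257 regions the signal was modest and alike in the 2 normal libraries. Fold enrichment ran from 3.39 to 20.1 with a median of 6.17 in normal library 1, and from 3.40 to 23.9 with a median of 6.17 in normal library 2. The 2 values of a region differed by less than 10% in 149 regions, and the larger was at most 2 times the smaller. Every region had to be called in both lists, and 105 had an identical peak edge. This likeness is therefore no measure of agreement between replicates. The pileup at the summit, recovered from the fold enrichment and its p-value, had a median of 8 reads in each library and ranged from 3 to 26 and from 3 to 30. Regions near gene ends that were called in all 4 lists were stronger, with median fold enrichments of 9.46 and 9.55 and a median pileup of 18 reads. Normal-only regions farther from genes were weaker, with medians of 5.28 and 5.31 and 5 reads. The ranges of the 3 groups overlapped.

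**Figure D3:**
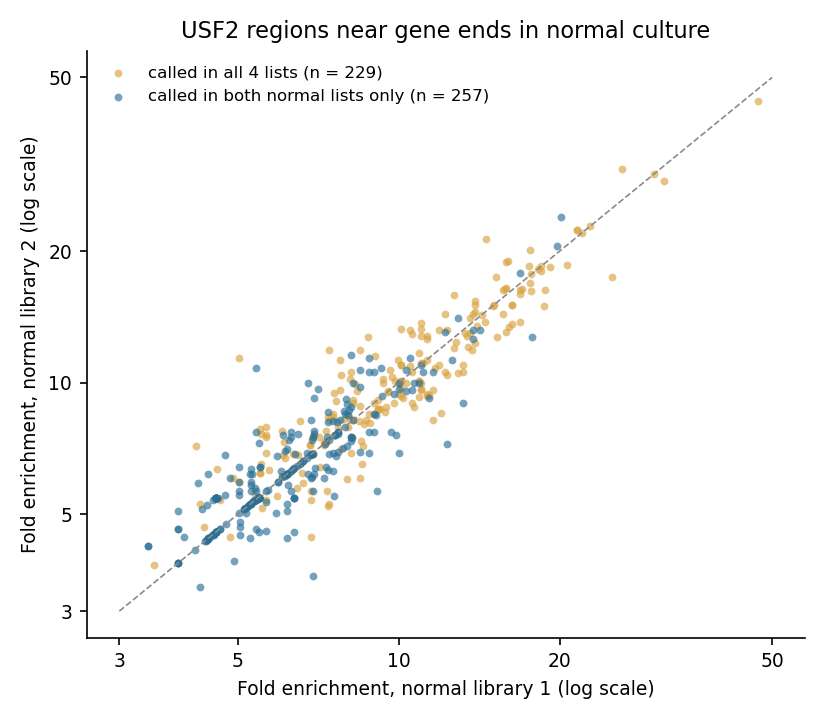
Fold enrichment of each region near a gene end in normal library 1 (horizontal) and normal library 2 (vertical), both on log scales, for the 257 normal-only regions (blue) and the 229 regions called in all 4 lists (yellow). The dashed line marks equal values; normal-only regions lie mostly below 10 and overlap the lower part of the regions called in all 4 lists.

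The strongest region lay at Rab21 (chr10:115315526-115315753), with fold enrichments of 20.1 in normal library 1 and 23.9 in normal library 2 from 25 and 30 reads. Its summit was inside the gene, 1805 bp from the gene end in the gene table but 23 bp from the start used for the promoter window, which belongs to another transcript. The uncharacterised gene 5730455P16Rik (chr11:80377917-80378156) followed with 19.8 and 20.6, 22 bp inside its start, and a starved peak lay 4943 bp away. Rad54l2 (chr9:106789125-106789356), a helicase of the SNF2 family that acts with nuclear receptors, had 16.9 and 17.8. These 3 regions stood above the other 254 in their smaller value. Their pileups of 19 to 30 reads exceeded the median of 18 reads of the regions called in all 4 lists. That none of them had a starved call follows from the rule that chose the regions.

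The other 9 of the 12 strongest regions had smaller fold enrichments between 10.6 and 13.2. Camk2d (chr3:126596143-126596378), the delta chain of calcium/calmodulin-dependent kinase II, had 13.8 and 13.2, 766 bp inside the gene. Commd4 (chr9:57158211-57158450) had 14.2 and 13.2. Cetn3 (chr13:81783665-81783894), a calcium-binding protein of the centriole, had 12.9 and 14.1. Fra10ac1 (chr19:38224075-38224283) had 13.8 and 12.6, and Usp30 (chr5:114100157-114100396) had 11.1 and 10.6. At 3 of the others a second protein-coding gene within 1000 bp of the summit is named, so the region cannot be given to one of the pair: Vps51 beside Tmem262, Ctns beside Shpk, and Fam149b beside Ecd. Values at Vps51 (chr19:6077155-6077396) were furthest apart of the 12, at 17.8 and 12.7. Fam149b (chr14:20348015-20348235) had 12.6 and 11.3, and Ten1 (chr11:116198756-116199062) had 11.0 in both libraries. All 12 lay within 1000 bp of a gene end or of the start used for a promoter window, and the summits at Rad54l2, Vps51, Fam149b and Usp30 lay outside the gene, within 100 bp of its end.

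In total 351 of 21887 protein-coding genes (1.60%) had a normal-only region within 5000 bp of an end. Of these 351 genes 12 (3.42%, 95% exact interval 1.78 to 5.90) also had another region with a call in a starved list within the same distance, near the 4.06% of all protein-coding genes (889 of 21887) with such a region. Among them were Prdm1, Sppl3 and Zbtb40 with a region called in all 4 lists and St3gal5 with a starved-only region. The counts for gene groups below are read against the 1.60% of all genes, and neighbouring genes can share a region. That 1.60% also counts genes without any region in both normal lists. For several groups the count among genes that both normal lists reached is therefore given as well. It is read against 351 of the 728 such genes (48.2%). Each group has at most 7 such genes, and the activity of these genes in MEFs was not measured here.

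Endosomal genes had the most normal-only regions of the 22 groups, 7 of 80 genes (8.75%). Of these, 3 encode subunits of the Commander complex or its COMMD core: Commd4 as above, Commd2 (chr3:57651617-57651842; 8.16 and 11.6) and Commd3 (chr2:18676726-18676908; 7.28 and 7.25), the last with its summit nearer to Bmi1, a polycomb protein. Vps51, a subunit of the GARP and EARP tethers of the Golgi and endosomes, was among the strongest. Vps16 (chr2:130424173-130424358; 6.28 in both libraries), a core subunit of the HOPS and CORVET tethers that drive endosome and lysosome fusion, shared its region with Pced1a. Vps35 (chr8:85299444-85299619; 6.44 in both), the core of the retromer that returns receptors from endosomes, shared its region with Orc6. Gga2 (chr7:122021020-122021287) had 8.20 and 10. CACGTG was present at Gga2, at Vps16 (73.5 bp from the summit) and in the window of Bmi1 (22.5 bp), and absent at Commd4 and Vps35, while the summits at Commd2 and Vps51 lay in no promoter window. In this group 25 genes had a region in both normal lists, and 7 of these 25 had a normal-only one, beside 351 of the 728 protein-coding genes that both normal lists reached (48.2%, 44.5 to 51.9), so the group's share without a starved call was the smaller of the 2.

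Rab GTPases are the switches of vesicle transport. Beside Rab21, Rab31 (chr17:65772612-65772837), which acts between the Golgi and endosomes, had a normal-only region, with 10 and 6.90 at a summit 54 bp from its start. Rab21 had the higher values in both libraries.

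Of 36 lysosomal membrane proteins 3 had a normal-only region (8.33%). None of 56 hydrolases and cofactors and none of 17 subunits of the vacuolar proton pump had one, counts that at these list sizes are near the 1.60% of all genes. Ctns (chr11:73198832-73199161; 12.2 and 13.1) encodes cystinosin, which exports cystine from lysosomes, and lay 48 bp inside the gene. Spns1 (chr7:126377310-126377572; 10.5 and 11.4) encodes a lysosomal lipid transporter. Tmem192, a lysosomal membrane protein of unknown activity, had a normal-only region at each end, with 6.88 and 7.41 at its start (chr8:64947529-64947700) and 4.63 in both libraries at its far end (chr8:64969423-64969574). All 4 of these regions had peaks with an identical edge in the 2 normal lists. Of the lysosomal genes reached by both normal lists, 3 of 11 membrane genes, 0 of 14 hydrolases and 0 of 6 pump subunits had a normal-only one, beside 48.2% of all such genes; no test was made.

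Genes of nutrient and energy sensing had normal-only regions at about the share of all genes. Of 34 genes of mTORC1 and amino acid sensing, 1 had a region (2.94%), at Flcn (chr11:59809131-59809294; 5.47 and 7.29 from 5 and 7 reads), whose product folliculin acts on the Rag GTPases at the lysosome. None of 18 AMPK and energy stress genes and none of 40 autophagy genes had one. Of 22 glycolysis genes 1 had a region (4.55%), at Gapdh (chr6:125164858-125165112; 6.89 and 6.08), 1495 bp from the gene end. Of 22 genes of the ER and ATF4 stress response, 1 had a region, at Chac1 (chr2:119350574-119350762; 7.36 and 6.31), which degrades glutathione. Each of these 3 regions had at most 13 reads at the summit.

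Of 30 genes for basic helix-loop-helix factors and partners, 1 had a region (3.33%), at Usf1, with 4.51 in both libraries from 4 reads, 3179 bp from the gene end (chr1:171414315-171414543), and its peaks had an identical edge. Of 22 clock genes 1 had a region, at Tef (chr15:81802464-81802658), a leucine zipper factor of circadian output, with 7.67 and 8.12. Its summit lay 128 bp from the start, and an E-box was centred 3.5 bp from it. The region at Tef thus held about 4 times as many reads, 16 and 17, as the one at Usf1.

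The list of the mitochondrial ribosome and translation had 5 of 68 genes with a region (7.35%), all 5 for proteins of the large ribosomal subunit. Both normal lists reached 8 genes of this list, of which these were 5, beside 48.2% of all genes so reached. Mrpl3 (chr9:105053130-105053355) had 9.25 and 10.8, 34 bp from its start, with CCGGAA 17.5 bp from the summit and no E-box. Mrpl39 (chr16:84735146-84735340; 5.03 and 5.52) also had CCGGAA, but 76.5 bp from the summit, and no E-box. Mrpl44 (chr1:79776000-79776200; 8.16 and 7.53) and Mrpl27 (chr11:94653795-94654056; 6.17 in both) had summits nearer to Wdfy1 and to Eme1, a nuclease subunit. The window of Eme1 held both motifs, CACGTG 48.5 bp and CCGGAA 190 bp from the summit. The region counted for Mrpl20 (chr4:155813563-155813814; 3.86 in both from 4 reads) lay 4932 bp from its end and was nearest to Ccnl2. The summits counted for Mrpl44 and Mrpl20 lay in no promoter window. Of 37 respiration genes 1 had a region (2.70%), at Ndufb3 (chr1:58586243-58586584), an accessory subunit of respiratory complex I, with 10.3 and 10.7 beside Fam126b. The ribosome biogenesis and translation list had 2 of 35 (5.71%), or 2 of the 5 that both normal lists reached. These were Fbl (chr7:28169088-28169281; 3.86 and 5.08), the methyltransferase fibrillarin of the nucleolus, and Rrn3 (chr16:13780461-13780677; 6.90 and 5.65), an initiation factor of RNA polymerase I with 2 E-boxes in its window, the nearer 82.5 bp from the summit.

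Genes that copy, repair or organise the genome also appeared. Of 38 cell cycle and replication genes 3 had a region (7.89%): Mcm2 (chr6:88898608-88898838; 12.3 and 7.25) and Mcm5 (chr8:75125341-75125506; 5.47 and 5.46), subunits of the replicative helicase, and Orc6, a subunit of the origin recognition complex that shares its region with Vps35. Mcm2 lay 63 bp from the gene start and Mcm5 3026 bp from the far end. Of 42 repair genes 3 had a region (7.14%), Rad54l2 and 2 subunits of the transcription and repair factor TFIIH, Gtf2h2 (chr13:100492334-100492747; 5.40 and 7.71) and Gtf2h4 (chr17:35673777-35673985; 6.90 and 7.53). Neither TFIIH window held an E-box. Of 47 centrosome and cilium genes 2 had a region (4.26%), Cetn3 and Bbs2 (chr8:94099496-94099652; 6.73 and 6.90), a subunit of the BBSome of cilia. Among genes that both normal lists reached, these were 3 of 4 cell cycle, 3 of 5 repair and 2 of 4 centrosome genes. The share of all genes so reached was 48.2%, and no test was made.

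Of 45 splicing and RNA processing genes 3 had a region (6.67%), or 3 of the 6 that both normal lists reached. Sf3a3 (chr4:124714696-124714894; 8.79 and 10.6) and Snrpd3 (chr10:75517818-75518003; 7.94 and 8.46), the latter beside Gucd1, encode core spliceosome proteins, and Fra10ac1 was among the 12 strongest. Each of the 3 windows held CCGGAA and none held CACGTG. Among the sterol and lipid genes, Scap (chr9:110379980-110380140; 4.55 and 5.46 from 4 and 5 reads), the sterol-sensing escort of SREBP, had its summit 4877 bp from the far end of the gene.

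Many normal-only regions lay at gene starts, but fewer than of the regions called in all 4 lists. The median distance from summit to gene end was 448 bp, and 92 regions (35.8%) lay within 100 bp. The strand was known for the nearest gene of 201 regions, of which 160 (79.6%, 95% exact interval 73.4 to 84.9) were nearest to the start and 41 to the far end. In regions called in all 4 lists the start was nearest in 181 of 184 (98.4%, 95.3 to 99.7), and in starved-only regions in 106 of 124 (85.5%, 78.0 to 91.2). Far-end regions were weaker and less sharply placed, with a median smaller fold enrichment of 4.55 at a median distance of 2747 bp, against 6.28 and 134 bp at starts. An identical edge of the 2 normal peaks was seen in 26 of the 41 far-end regions (63.4%, 46.9 to 77.9) and in 57 of the 160 at starts (35.6%, 28.2 to 43.6). In all, 160 of the 257 summits (62.3%) lay inside a protein-coding gene; exons, introns and untranslated parts were not told apart.

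**Figure D4:**
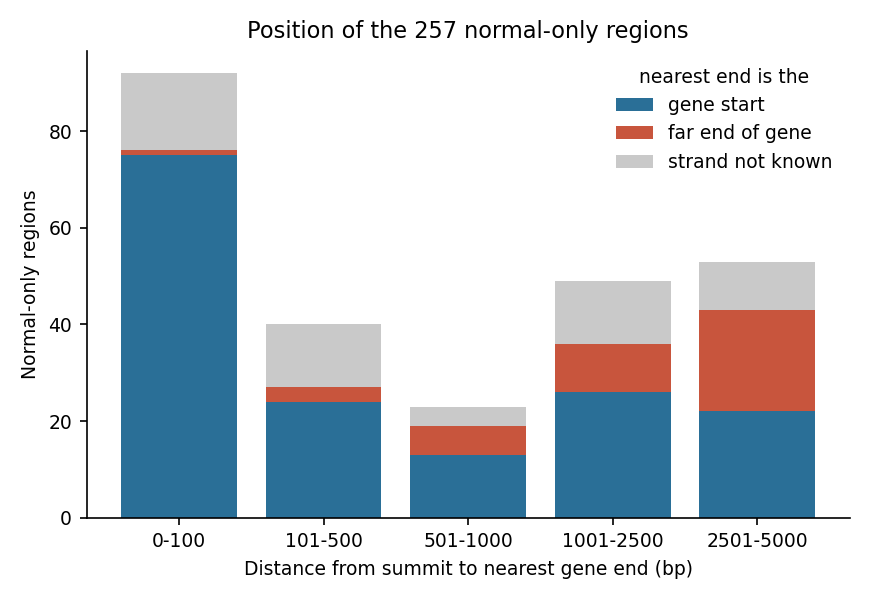
Number of normal-only regions by distance from the summit to the nearest end of a protein-coding gene, coloured by whether that end is the start or the far end of the gene. Of the 92 regions within 100 bp, 75 were at starts and 1 at a far end, the others having no known strand, and far ends were most frequent beyond 2500 bp. Ends are those of the gene table, and the start of another transcript can lie nearer.

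Signal was highest close to gene ends. The median smaller fold enrichment was 6.78 within 100 bp of a gene end, 6.25 from there to 500 bp, and between 5.35 and 5.46 in the 3 groups beyond. Just inside the bound of 5000 bp lay the regions at Zbtb40 (4819 bp; 5.47 and 5.46), Scap (4877 bp) and Zdhhc23 (4918 bp; 5.47 and 5.46). Just outside lay those at Hdhd2 (5032 bp; 5.31 and 6.21), Rbfox3 (5109 bp; 4.55 in both) and Cygb (5124 bp; 5.24 in both). Values on the 2 sides of the bound overlapped. Of all 760 normal-only regions 33.8% were near a gene end (30.5 to 37.3), against 92.7% of the regions called in all 4 lists (88.7 to 95.6) and 54.5% of the starved-only ones (48.5 to 60.5); 12.2% of the span between first and last gene lies that close. With a −log10 q of at least 5 required of every peak, 129 of 182 normal-only regions, or 70.9%, were near a gene end.

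Whether a region near a gene end lacked a starved call went with its number of reads in normal culture. Of the 527 regions of both normal lists, 89 of 94 with 3 to 5 reads in the lower library had no starved call (94.7%, 88.0 to 98.3), as did 75 of 107 with 6 to 9 reads (70.1%, 60.5 to 78.6). The share was 61 of 138 at 10 to 14 reads (44.2%, 35.8 to 52.9) and 32 of 188 at 15 to 75 reads (17.0%, 11.9 to 23.2). Peak width and condition changed together between the lists, and depth may have as well. A loss of USF2 and a lower chance of a call therefore cannot be told apart for any of these regions, weak or strong. No starved peak lay within 1000 bp of any of the 257 regions, and 4 had one within 5000 bp, the nearest 1041 bp from the region at Hectd3.

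**Figure D5:**
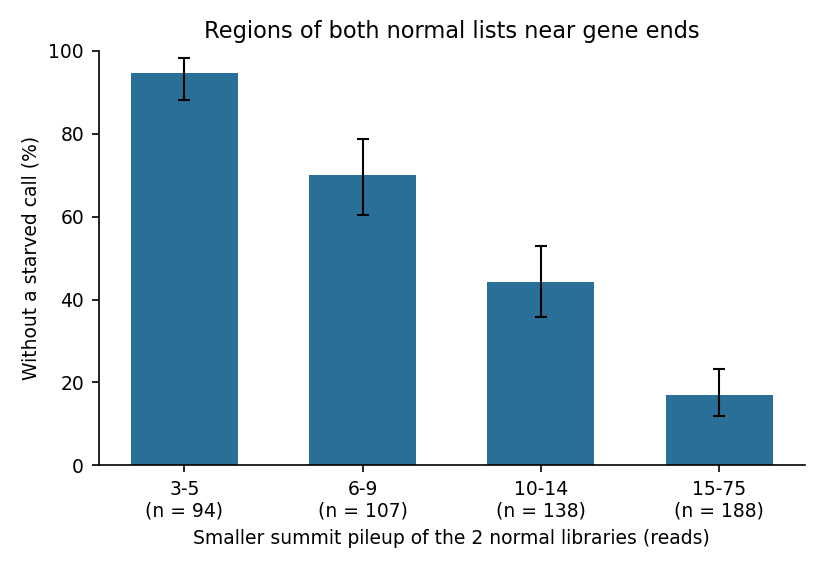
Percentage of regions near gene ends, called in both normal lists, that had no call in either starved list, by the smaller read pileup of the 2 normal libraries. Bars carry 95% exact intervals and n is the number of regions; the share falls from 94.7% at 3 to 5 reads to 17.0% at 15 to 75 reads.

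Peaks of the 2 normal lists often began or ended at the same base. This was so in 105 of the 257 regions (40.9%, 95% exact interval 34.8 to 47.1) and in 47 of the 229 regions called in all 4 lists (20.5%, 15.5 to 26.3). Both edges were identical in 46 normal-only regions (17.9%, 13.4 to 23.1) against 4 of those in all 4 lists (1.75%, 0.478 to 4.41), and in 24 the summit and the recovered pileup were identical as well. Regions with an identical edge had a median smaller fold enrichment of 5.46 and a pileup of 5 reads, those without 6.25 and 9 reads. The share went with the reads: in normal-only regions with 3 to 5 reads it was 59.6% (48.6 to 69.8). Only 3 regions called in all 4 lists had so few reads. At 6 to 9 reads it was 36.0% (25.2 to 47.9), against 31.8% in regions called in all 4 lists (13.9 to 54.9). At 10 to 14 reads it was 32.8% against 16.7%, and at 15 or more reads 15.6% (5.28 to 32.8) against 20.8% (14.5 to 28.4). Normal-only regions farther from gene ends had an identical edge in 303 of 503 (60.2%, 55.8 to 64.5). Whether the 2 normal libraries share reads was not tested. The 152 regions without an identical edge still included 10 of the 12 strongest, all except Rab21 and Ctns.

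The regions were spread over all chromosomes except Y, from 4 on chromosome 14 to 26 on chromosome 2. Relative to the number of protein-coding genes they were densest on chromosome 8, with 25 regions or 24.0 per 1000 genes, and, Y aside, sparsest on chromosome 7, with 9 regions or 4.43 per 1000 genes. On chromosome 8 the share of regions of both normal lists without a starved call was 52.1% and on chromosome 7 it was 47.4%, both near the 48.8% of all chromosomes.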

How the data were processed

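USF2 was measured by ChIP-seq in 4 libraries of wild-type MEFs, 2 in normal culture and 2 after glucose starvation. Per the submitters' processing notes, Bowtie2 2.5.1, MACS2 2.2.7.1, deepTools 3.5.1 and GRCm38 were used; the parameters and the control of the peak calling are not given in the sources used here. Each library came with its own deposited peak list. The fold enrichment in it is a ratio computed by the authors' peak caller, and the −log10 p and q values were deposited from the same caller. Fold enrichments were compared between the 2 normal lists, and regions were ranked by the smaller of these 2 values; none was compared between conditions.

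Peaks were merged on the assembled autosomes and sex chromosomes, and their summits were set beside the 21887 protein-coding genes of the RefSeq gene table (GRCm38.p6). That table has no strand, so the side of a gene was taken from the RefSeq promoter windows, where a gene had one. The read pileup k at a summit was recovered as the whole number for which the fold (k + 1)/(background + 1) and its Poisson tail matched the deposited values. Region merging and this recovery were tested on simulated data. Motifs were searched as exact letters on both strands of the 300-base windows. Intervals are 95% Clopper-Pearson intervals; no test was run, as the calls chose the regions and a condition has 2 libraries. Python 3.11.15, pandas 2.3.3 and scipy 1.17.1 were used.

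The members, the 22 gene lists and the motifs were chosen with earlier results of these data known. Named were the 12 regions with the largest smaller fold enrichment over the normal lists, every region within 5000 bp of an end of a listed gene, the 6 with an E-box nearest to the summit, and the 3 regions on each side of the 5000 bp bound. A region carries the name of the gene with the nearest end. Some listed or neighbouring genes, and the counts of 2 lists that hold them, are not reported here. Alternatives changed the distance, the peak threshold, the merging, the genes, the libraries and the window searched.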

Additional observations from a re-analysis of the deposited data

How the results depend on the processing

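The E-box share of 39.0% kept within its counting interval under all 12 alternatives for the choice of regions and the 3 for the window searched, 2 of which were added after seeing the data: it ran from 33.0% with CACGTG counted only within 50 bp of the summit to 45.5% with every list limited to its best 825 peaks. In the 9 of these settings that also apply to regions called in all 4 lists, and do not remove a library or regions by their peak edges, that share ran from 84.4% to 96.2%. Leaving out a library gave 36.0% to 45.4%. The number and position of the regions depended more on the setting. Gene ends within 1000 bp gave 155 regions, 20.4% of all normal-only regions, with a median smaller fold enrichment of 6.39. Within 2500 bp the share was 26.8% and the median 6.15. A −log10 q of at least 5 gave 129 regions (70.9%, median 7.71), of which 103 were among the 257, and the best 825 peaks of each list gave 128 (61.8%, median 7.35), of which 124 were. Without regions of identical peak edges 152 remained (43.2%, median 6.25). All annotated genes gave 45.0%. Leaving out a library gave 269 to 461 regions, a share of 26.1% to 36.1% and a median of 5.46 to 6.04; the highest count, 461, came without normal replicate 1, when 1 list decides for normal culture. No test was run, and so none with the replicate numbers as pairs. Regions with 3 to 5 reads at the summit are too shallow to tell a lower signal from a missed call. At more reads the 2 cannot be told apart either, as peak width and condition changed together. Summits outside a promoter window, 157 of 257, were not searched.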
